A study of Mus musculus with 3 samples.

Results

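The genes described here are 40 genes of mitosis, from the cyclins and kinases that start it to the proteins that split the cell. They were taken from a list by symbol, using the non-control probes whose gene name in the array files is a listed gene, with Cdk1 also accepted under its older name Cdc2a. All 40 genes were found, on 68 probes, out of 27724 genes named on the array. No measured value served to select them, although the list was chosen with earlier results of these data known.

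RNA came from C3H10T1/2 cells, an established mouse embryo fibroblast line used in cell transformation assays, with or without exposure to hexavalent chromium, Cr(VI), a form of the metal that enters cells and damages DNA. The 3 groups were cells left untreated and cells given Cr(VI) at either 0.01 uM or 1 uM. All groups were seeded at 2000 cells per flask in DMEM, with 3 flasks of 25 cm2 to a group. Exposure began 24 h after seeding and lasted 48 h, after which the cells were washed and grown in fresh medium to day 15. The RNA was prepared after day 15, so the arrays describe cultures long after the exposure ended. Each group was read on 1 array with Cy3-labelled RNA, and it is not stated if that RNA was a pool of all 3 flasks. The series concerns gene dysregulation and transformation at low doses of Cr(VI), and the comparisons ask how the genes of mitosis stood in exposed and untreated cultures. In RNA from whole cultures, fewer dividing cells and less RNA per cell cannot be told apart.

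Mitosis begins when Cdk1, bound to cyclin A or B, is freed of inhibitory phosphates by the CDC25 phosphatases and is supported by the kinases Plk1 and Aurora A. The spindle checkpoint then holds back the anaphase-promoting complex and its activator Cdc20 until every kinetochore is attached. Most of these genes are transcribed in G2 and M phase, when their promoters are released from repression by the DREAM complex, which binds the cell cycle genes homology region (CHR), and are activated by NF-Y at CCAAT boxes with B-MYB, MuvB and FoxM1. Their RNA is therefore commonly read as a sign of how many cells of a culture are dividing.

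Promoter letters show what these genes share besides the list. In the RefSeq promoter table (GRCm38.p6; 250 bases before to 50 after each start), 33 of the 40 genes had an entry. Letters of the CHR, TTTGAA or TTCGAA on either strand, lay in 25 of these 33 windows (75.8%), against 19.4% of the windows of 27025 genes. CCAAT on either strand lay in 24 of the 33 (72.7%), against 37.9% of all genes. Both together lay in 22 (66.7%), against 7.7% of all genes. Within the 60 bases before to 50 after the start, 24 of the 33 (72.7%) held CHR letters, against 5.86% of all genes. E2F letters, which are TTTGGCG, its close variant TTTCGCG and the further variant TTTCCCG, lay in 5 windows (15.2%, against 5.72%). Forkhead letters (TGTTTAC or TGTTTGC) lay in 3 windows (9.09%, against 8.34%). Both strands were searched throughout, no searched word contains another, and TTCGAA reads the same on both strands. A match describes letters and not a bound site.

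The 100 bases before the start are shown for the genes with CHR letters wholly within the 60 bases before it, so that CHR and CCAAT letters can be read together, and for both cyclin B genes, for their repeated CCAAT letters. In the other genes with CHR letters near the start, those letters reach or follow it. Capitals mark CHR letters (TTTGAA or its reverse complement TTCAAA) and CCAAT or its reverse complement ATTGG.
Ccnb1 (chr13:100786487-100786586, minus strand): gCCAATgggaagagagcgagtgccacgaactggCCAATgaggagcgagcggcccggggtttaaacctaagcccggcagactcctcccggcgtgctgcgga
Ccnb2 (chr9:70421555-70421654, minus strand): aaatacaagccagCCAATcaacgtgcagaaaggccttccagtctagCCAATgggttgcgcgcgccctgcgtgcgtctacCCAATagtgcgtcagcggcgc
Cdc20 (chr4:118437344-118437443, minus strand): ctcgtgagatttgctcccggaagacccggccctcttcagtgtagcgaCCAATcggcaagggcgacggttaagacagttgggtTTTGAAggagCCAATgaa
Cdk1 (chr10:69352913-69353012, minus strand): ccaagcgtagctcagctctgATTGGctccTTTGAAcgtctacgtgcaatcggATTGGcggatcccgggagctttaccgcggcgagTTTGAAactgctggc
Espl1 (chr15:102296193-102296292, plus strand): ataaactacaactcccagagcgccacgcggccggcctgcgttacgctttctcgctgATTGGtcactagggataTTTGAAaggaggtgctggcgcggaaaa
Kif11 (chr19:37376282-37376381, plus strand): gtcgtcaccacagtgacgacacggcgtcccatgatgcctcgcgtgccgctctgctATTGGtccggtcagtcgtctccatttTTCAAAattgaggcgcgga
Kif22 (chr7:127042421-127042520, minus strand): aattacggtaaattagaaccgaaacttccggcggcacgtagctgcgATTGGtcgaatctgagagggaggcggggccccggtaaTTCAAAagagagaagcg
Top2a (chr11:99024190-99024289, minus strand): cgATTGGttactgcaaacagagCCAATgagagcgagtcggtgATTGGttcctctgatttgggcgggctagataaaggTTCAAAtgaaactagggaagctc
Ube2c (chr2:164769829-164769928, plus strand): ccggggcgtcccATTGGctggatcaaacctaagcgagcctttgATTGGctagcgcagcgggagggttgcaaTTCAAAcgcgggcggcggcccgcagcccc
In 7 of the genes shown, spacing was measured from the CHR match nearest the start and wholly before it. The nearest CCAAT letters before that match began 17 (Espl1) to 37 (Kif22) bases earlier. CHR matches further upstream, such as that of Cdk1 at position -71, were not measured in this way. The Ccnb2 stretch holds 3 CCAAT words set 33 bases apart, and the Ccnb1 stretch 2 set 32 bases apart. The CHR letters of Ccnb2 nearest its start begin at position 5 after it, outside the bases shown, and the Ccnb1 window holds none.

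**Figure D1:**
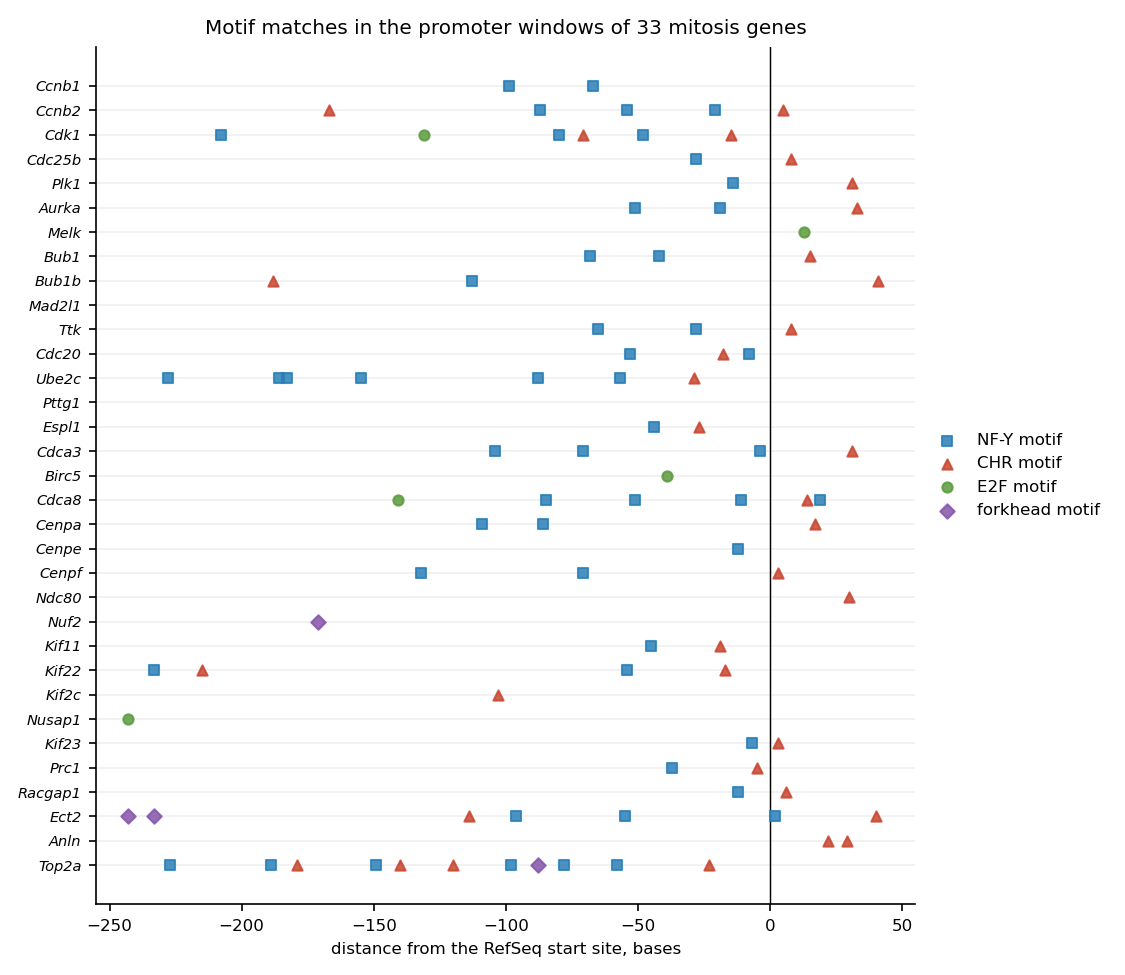
Start positions of motif letters in the promoter windows of the 33 genes with a RefSeq entry, 1 row per gene, with distance from the start site in bases on the horizontal axis and 0 at the start. Triangles (CHR) lie between 60 bases before and 50 after the start in 24 of the 33 genes, mostly with squares (CCAAT letters, the NF-Y motif) upstream of them.

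Values below are log2 spot signals minus the array's 75th percentile over all probes, called log2 levels, in the order untreated, 0.01 uM, 1 uM. They compare 1 gene across arrays and not genes with each other, since probes differ in brightness. A difference is between 2 single arrays and has no replicate check. Its standard error (SE) is the scanner software's technical error, 0.20 (log2) for most genes against untreated and up to 0.29 for Kif11 and Kif2c, and does not hold the spread between cultures. A gene is given by its brightest probe. Of the 40 genes, 39 were well above background on all 3 arrays and none was saturated. The exception was Ttk, which was above background only on the untreated array and so has no measured fold. Fold differences of at least 1.5 and at least 2 were counted, with no test.

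For the series as a whole, 36.4% to 41.8% of probes were well above background. The cultures had the markers of fibroblasts, 10 of 10 well above background in untreated and 0.01 uM cells and 9 of 10 at 1 uM, where Thy1 was the exception. Epithelial markers were above background in 0 of 5 on every array, leukocyte markers in 1 of 6 (Cd68), endothelial in 0 of 4 (1 at 1 uM, Cdh5) and skeletal muscle in at most 1 of 3 (Des). What part these had in the values below was not tested. The scale matters for direction: with 5 spike-in controls as the reference, the median of all genes moved by 0.71 at 1 uM and by 0.32 at 0.01 uM against untreated, and by 0.39 between the doses. Of all genes past 1.5-fold, the share that was higher was 50.8% at 1 uM (95.5% with spike-in scaling). At 0.01 uM that share was 44.2% (29.5% when scaled on detected probes only and 96.0% with spike-ins). Between the doses it was 41.7% (56.3%, 57.8% and 81.3% with detected-probe, loess and spike-in scaling). Directions below are therefore relative to the bulk of the genes.

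At 1 uM, 15 days after seeding, the mitosis genes stood close to their untreated levels. None of the 40 was at least 1.5-fold higher, where 13.8% of the 12450 genes compared were. At least 1.5-fold lower were 2 of 40, where 13.4% of all genes were, and these were Cdc25c and Aurkb. None was at least 2-fold higher (5.57% of all genes) and 1, Cdc25c, was at least 2-fold lower (4.86% of all genes). The median difference was -0.06 (log2), beside -0.04 for all genes. The middle 50% of the mitosis genes spanned 0.21 log2 units, beside 0.70 for all genes compared and 0.60 for genes well above background on all arrays. That span depended on processing. It was 0.35 with the mean of all probes, beside 0.68 for all genes, and 0.31 with quantile normalization, beside 0.70. Of the 40, 27 lay within 1 SE of no difference, Ttk counted among them although it has no measured fold. That share was not counted over all genes. Beyond 2 SE lay 6 (15.0%): Espl1 was higher, and Cdc25c, Aurkb, Cenpa, Ndc80 and Ccnb2 were lower. Among all genes measured on both arrays, 36.7% lay beyond 2 SE. With spike-in scaling 25 of the 40 were at least 1.5-fold higher and none lower, the median being 0.65. The median relative to all genes ranged from -0.21 to 0.04 over the alternatives.

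**Figure D2:**
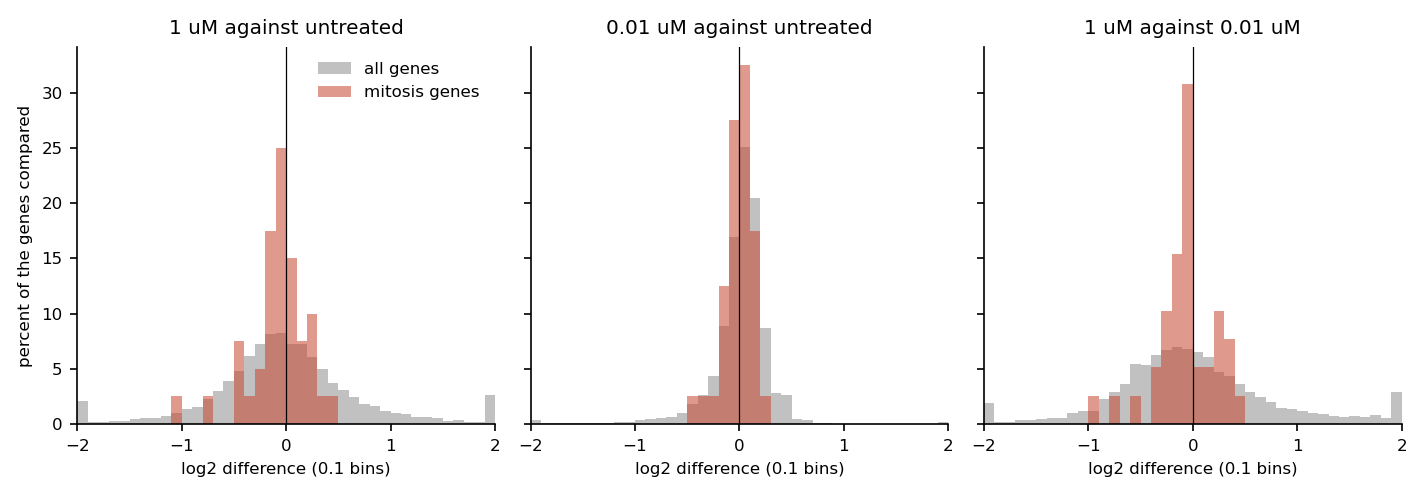
Share of genes (percent) in each 0.1-wide bin of log2 difference for all genes compared (grey) and the 40 mitosis genes (red; 39 for 1 uM against 0.01 uM), with values beyond 2 log2 units in the end bins. The mitosis genes are heaped near 0 in each panel, and at 1 uM their middle 50% spans 0.21, beside 0.70 for all genes.

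Among the cyclins, Cdk1 and the CDC25 phosphatases, 1 of 6 genes, Cdc25c, passed 1.5-fold at 1 uM, and Ccnb2 was lower by more than 2 SE. Cdk1, the kinase of mitotic entry, had log2 levels of 2.95, 2.99 and 2.93. Its partner cyclin B1 (Ccnb1) had log2 levels of 1.35, 1.13 and 1.30. At 1 uM both were close to untreated, with log2 differences of -0.02 and -0.06, while Ccnb1 was lowest at 0.01 uM (-0.22, SE 0.21). The other Ccnb1 probes read 0.24 and 0.13 at 1 uM, and -0.01 and 0.05 at 0.01 uM. Cyclin A2 (Ccna2), which acts from S phase to early mitosis, was within 1 SE, with a log2 difference of -0.12 at 1 uM. Cyclin B2 (Ccnb2) had log2 levels of 4.41, 4.54 and 3.97, lowest at 1 uM, 0.44 below untreated (SE 0.20). Between the doses it was lower by 1.48-fold, just short of the 1.5-fold mark.

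Cdc25c, the phosphatase that activates Cdk1 at entry into mitosis, had log2 levels of 0.64, 0.55 and -0.42. The first 2 arrays lay close together and the 1 uM array stood below both. Its log2 difference at 1 uM was -1.06 (SE 0.21), 2.09-fold lower. A second Cdc25c probe, dimmer, had log2 levels of -0.82, -1.02 and -1.68 and a log2 difference of -0.86 (SE 0.26). Relative to the median of all genes, Cdc25c lay between -1.21 and -0.83 in all alternatives, and on the spike-in scale it was at -0.35. The related phosphatase Cdc25b was not lower: its log2 levels were 3.73, 3.70 and 4.02, a log2 difference of 0.29 (SE 0.20) at 1 uM.

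On this scale the kinases Plk1, Aurka and Melk read slightly above untreated at 1 uM, and none of them passed 1.5-fold. Kinases described with other role groups did not all share this. Aurkb (-0.70) and Bub1 (-0.24) read lower, and Cdk1 was nearly level (-0.02), while Bub1b (0.20) read higher. Polo-like kinase 1 (Plk1), which acts from centrosome maturation to cytokinesis, had log2 levels of 3.04, 3.00 and 3.38. Aurora A (Aurka), the kinase of spindle poles, had log2 levels of 4.57, 4.51 and 4.74. For both, untreated and 0.01 uM cells were close and 1 uM cells highest, by 0.34 and 0.17 (log2) over untreated. Melk, a kinase of dividing cells, had log2 levels of 1.76, 1.87 and 1.83.

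The 3 spindle checkpoint genes measured on every array were within 1.5-fold of untreated at both doses. Bub1, the kinase that recruits checkpoint proteins to kinetochores, had log2 levels of 1.55, 1.36 and 1.31. BubR1 (Bub1b), part of the complex that inhibits Cdc20, had log2 levels of 2.19, 2.15 and 2.38. Mad2 (Mad2l1), which binds Cdc20 while kinetochores are unattached, had log2 levels of 0.45, 0.47 and 0.40. Bub1 was highest in untreated cells and Bub1b at 1 uM, so these genes had no common order over the arrays. Ttk (Mps1), the kinase at the head of the checkpoint, had log2 levels of -2.89, -3.33 and -2.97, near the detection limit on every array.

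Of the genes of anaphase and its ubiquitin ligase, 4 were almost level and 1 was higher. Cdc20, the activator of the anaphase-promoting complex, had log2 levels of 4.80, 4.83 and 4.76. Ube2c, its ubiquitin-conjugating enzyme, had a log2 difference of -0.01 at 1 uM, and Cdca3, a mitotic entry factor, of 0.02. Securin (Pttg1), the inhibitor of separase, had log2 levels of 4.65, 4.52 and 4.58. Separase itself (Espl1), the protease that cuts cohesin, had log2 levels of 0.39, 0.34 and 0.83. The 1 uM array stood above the other two, by 0.44 (SE 0.21) over untreated, 1.36-fold, the highest difference of the 40 genes.

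**Figure D3:**
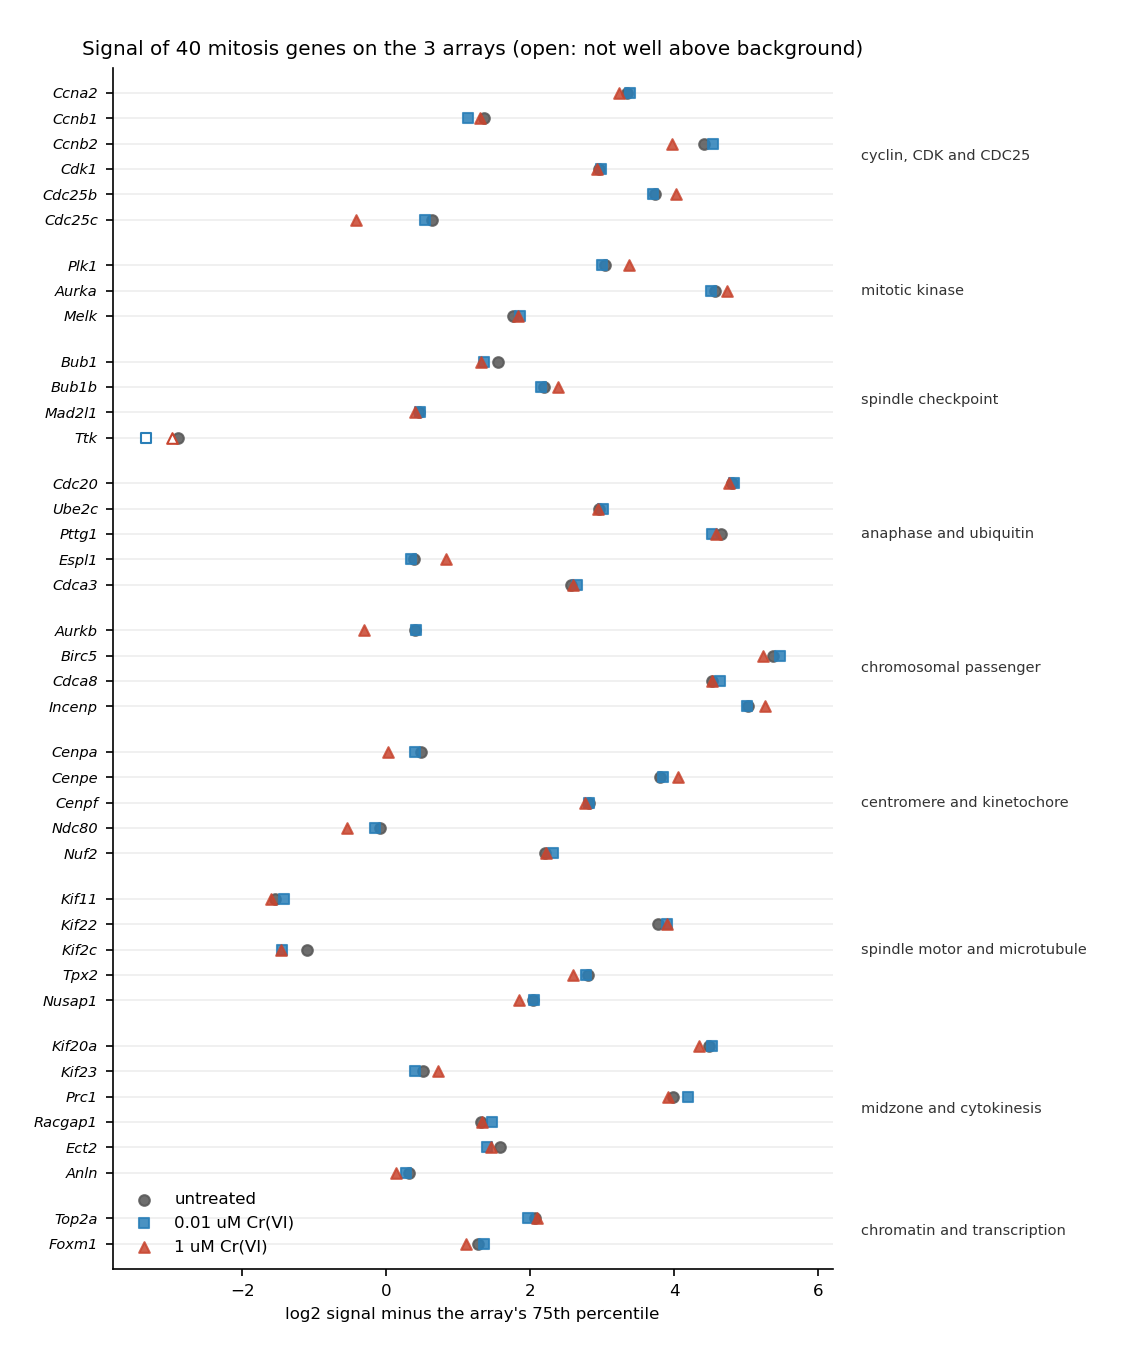
Log2 level of each of the 40 genes (log2 signal minus the array's 75th percentile) on the untreated (circle), 0.01 uM (square) and 1 uM (triangle) arrays, grouped by role, with open symbols where the probe was not well above background. For most genes the 3 symbols overlap, while the triangle of Cdc25c (-0.42) and Aurkb (-0.31) stands to the left.

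The chromosomal passenger complex, which corrects faulty spindle attachments and then guides cytokinesis, was uneven. Its kinase Aurora B (Aurkb; probe at chr11:68865037-68865096, build mm9) had log2 levels of 0.39, 0.42 and -0.31. Untreated and 0.01 uM cells were nearly equal and 1 uM cells lower by 1.63-fold (log2 difference -0.70, SE 0.22). Relative to the median of all genes, Aurkb lay between -0.85 and -0.53 in all alternatives, but on the spike-in scale it was level with untreated (0.01). No other subunit was 1.5-fold lower. Survivin (Birc5) had log2 levels of 5.38, 5.47 and 5.23. Incenp, the scaffold that activates Aurora B, had log2 levels of 5.03, 5.01 and 5.26, highest at 1 uM by 0.23 over untreated. Borealin (Cdca8) had log2 levels of 4.52, 4.63 and 4.53, although a much dimmer probe gave a log2 difference of -0.48.

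At centromeres and kinetochores, 2 genes read lower at 1 uM by more than 2 SE, without reaching 1.5-fold. Cenpa, the histone H3 variant that marks centromeres, had log2 levels of 0.49, 0.40 and 0.02, a log2 difference of -0.47 (SE 0.21). Ndc80, the kinetochore protein that grips microtubules, had log2 levels of -0.09, -0.16 and -0.54, a log2 difference of -0.45 (SE 0.22). Both stood lowest at 1 uM, but on the spike-in scale they were above untreated, at 0.24 and 0.26, as was Ccnb2 (0.27). Nuf2, the partner of Ndc80 in the same complex, had log2 levels of 2.21, 2.32 and 2.22 and was nearly level. The kinesin Cenpe had log2 levels of 3.81, 3.85 and 4.06, and Cenpf, a coat protein of the outer kinetochore, a log2 difference of -0.06 at 1 uM.

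Among the spindle motors and microtubule binders, the largest differences were those of Kif2c. Kif2c (MCAK), which takes microtubules apart at centromeres, had log2 levels of -1.10, -1.45 and -1.46. Its log2 difference was -0.35 at 0.01 uM (SE 0.29) and -0.37 at 1 uM (SE 0.25), each within 2 SE. Both dose arrays shared the same untreated array, so these values are not independent. Kif11 (Eg5), the motor that separates the poles, had log2 levels of -1.55, -1.42 and -1.60. Kif22, the chromosome-arm motor, had log2 levels of 3.78, 3.91 and 3.90. The assembly factor Tpx2 had log2 levels of 2.81, 2.78 and 2.60, and the bundling protein Nusap1 a log2 difference of -0.19 at 1 uM. All were within 1.5-fold.

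In the midzone and at cytokinesis, the 6 genes ranged from -0.18 (Anln, anillin) to 0.21 (Kif23) in log2 difference at 1 uM. Kif23 (MKLP1), a motor of the midzone, had log2 levels of 0.52, 0.40 and 0.72. Its partner Racgap1 had log2 levels of 1.31, 1.47 and 1.34. Prc1, which bundles the midzone microtubules, had log2 levels of 3.98, 4.20 and 3.91, highest at 0.01 uM. Ect2, the exchange factor that activates RhoA for the cleavage furrow, had log2 levels of 1.58, 1.40 and 1.45. Kif20a, another midzone motor, had a log2 difference of -0.14 at 1 uM. No array was the highest for the whole group.

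Top2a, the topoisomerase that untangles sister chromatids, had log2 levels of 2.07, 1.97 and 2.10. Foxm1, the transcription factor that drives many of the genes above, had log2 levels of 1.28, 1.36 and 1.11. Both differed from untreated by less than 1 SE at each dose.

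**Figure D4:**
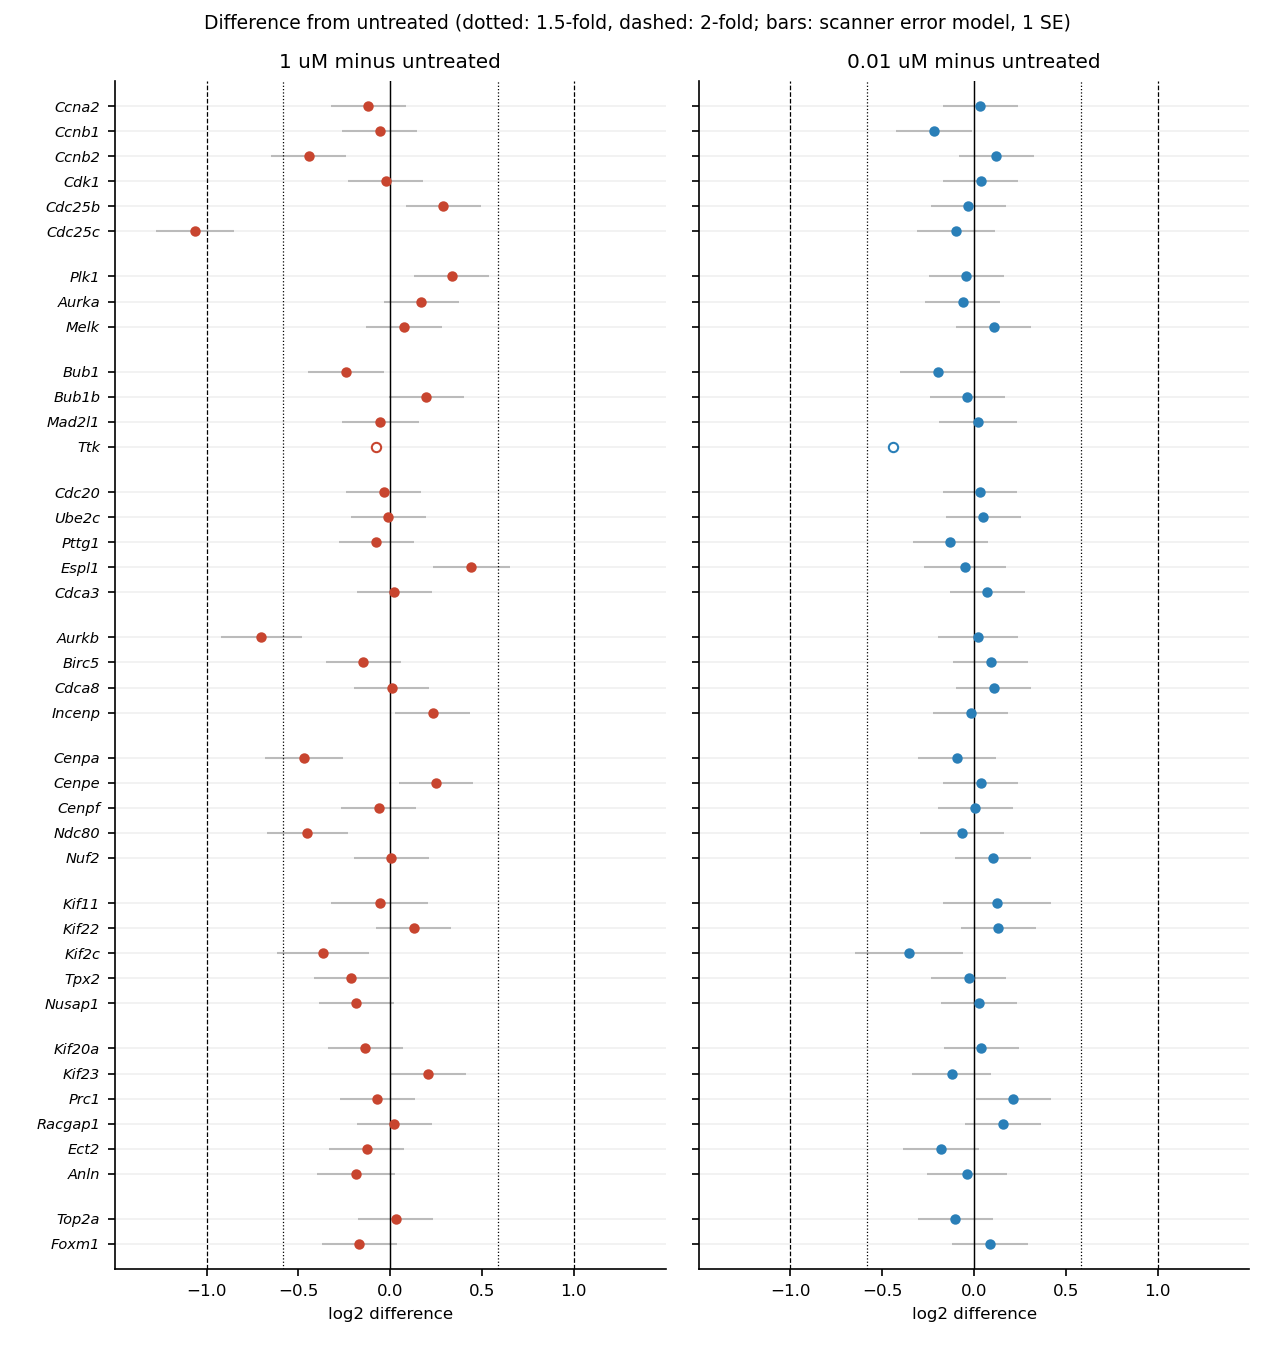
Log2 difference from untreated for the 40 genes at 1 uM (left) and 0.01 uM (right), with bars of 1 SE from the scanner error model, dotted lines at 1.5-fold, dashed lines at 2-fold and an open circle for Ttk, which was dim on the dose arrays. On this scale Cdc25c (-1.06) and Aurkb (-0.70) pass the 1.5-fold line at 1 uM, and no gene does at 0.01 uM; with spike-in scaling Aurkb stood at 0.01.

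At 0.01 uM the set was closer still to untreated. None of the 40 genes was at least 1.5-fold higher or lower, where 0.898% and 1.13% of the 11915 genes compared were. None was at least 2-fold apart, where 0.26% of all genes were higher and 0.168% lower. With so few genes apart in the whole comparison, a count of 0 is close to the background. The median log2 difference was 0.01, beside 0.05 for all genes. Within 1 SE lay 37 of 40 genes, Ttk counted among them although it has no measured fold. None lay beyond 2 SE, beside 2.83% of all genes measured on both arrays. Prc1 was the highest (0.21) and, among genes above background, Kif2c the lowest (-0.35), followed by Ccnb1 (-0.22), Bub1 (-0.20) and Ect2 (-0.18). Racgap1 (0.16), Kif22 (0.13) and Kif11 (0.13) followed Prc1. This order rests on the brightest probes, and other detected probes did not all bear it out. A second probe read 0.21 for Bub1 and -0.09 for Racgap1, and the other Ccnb1 probes read -0.01 and 0.05. Bub1 had the widest span between probes at this dose, 0.41.

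Between the doses, 39 genes were compared, Ttk being dim on both arrays. None was at least 1.5-fold higher at 1 uM (12.4% of 12059 genes) and 2 were at least 1.5-fold lower (17.3%), again Cdc25c (log2 difference -0.97, SE 0.22) and Aurkb (-0.72, SE 0.23). None was at least 2-fold higher (5.2%) or lower (6.44%). Ccnb2 (-0.57), Ndc80 (-0.38) and Cenpa (-0.38) came next below, and Espl1 (0.49), Plk1 (0.38), Kif23 (0.33) and Cdc25b (0.32) stood highest. The 3 comparisons share arrays in pairs, so their values are not independent.

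Taking the 39 genes above background on every array, 37 (94.9%) kept all 3 arrays within 1.5-fold of each other, beside 68.5% of the 10575 genes detected on all 3. The 3 arrays lay within 0.2 log2 units in 18 (46.2%), beside 21.0%. The 0.01 uM array was the highest for 20 of the 39 genes (51.3%), beside 47.4% of all genes detected. The 1 uM array was the lowest for 21 (53.8%), beside 52.9%. These 2 shares were near those of genes in general, but others were not. The untreated array was the highest for 25.6%, beside 15.0%, and the 1 uM array for 23.1%, beside 37.5%.

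Several probes of 1 gene gave a technical check. At 1 uM, 11 genes had more than 1 probe above background on both arrays, and their probes spanned a median of 0.09 log2 units. No gene had 1 probe at least 1.5-fold higher and another at least 1.5-fold lower, a count that misses smaller disagreements. The probes of Ccnb1 differed in sign (-0.06, 0.24 and 0.13), as did those of Cdca3, Cdca8, Mad2l1 and Racgap1. Racgap1 spanned most, with its brightest probe at 0.02 and another at -0.49, followed by Cdca8. Cdc25c was the only one with both probes beyond -0.80.

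**Figure D5:**
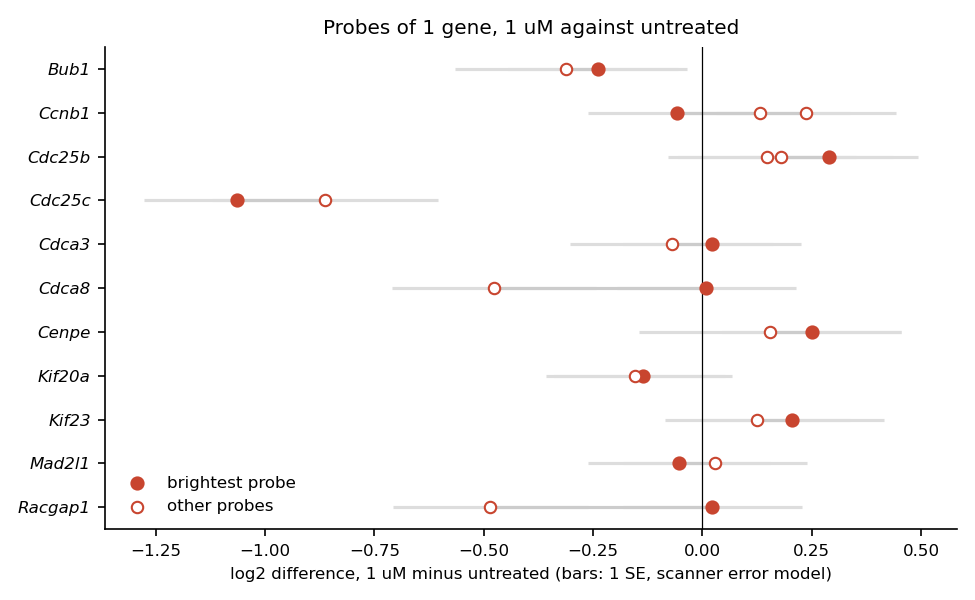
Log2 difference at 1 uM for each probe of the 11 genes with more than 1 probe above background (filled, the brightest; open, the others; bars, 1 SE of the scanner error model). Both Cdc25c probes lie far to the left at -1.06 and -0.86, while Racgap1 and Cdca8 have 1 probe near 0 and 1 near -0.5.

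Other genes of the division machinery were counted on lists from textbook knowledge. Of 98 other mitosis genes compared at 1 uM, 4 were at least 1.5-fold higher and 6 lower, where 13.8% and 13.4% of all genes were. None was 2-fold apart (5.57% of all genes higher, 4.86% lower), and the median log2 difference was -0.01. The higher ones were Stil (0.73) and Tubg1 (0.64) of the centrosome, Trip13 (0.67), which recycles Mad2, and Mad1l1 (0.67), its kinetochore anchor. The lower ones were the kinetochore genes Spc24 (-0.87), Cenpp (-0.79) and Oip5 (-0.63), the spindle genes Dlgap5 (-0.72) and Hmmr (-0.68), and the kinase Pbk (-0.67). Spc24 sits in the same complex as Ndc80 and Nuf2, and Oip5 loads Cenpa. The proliferation marker Mki67 had log2 levels of 4.27, 4.26 and 4.17 and was nearly level. At 0.01 uM 1 of 97 passed, Gtse1 (-0.75).

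Genes of the preceding cell cycle phases were counted in the same way. Of 51 genes of DNA replication and the G1/S transition, 11 passed 1.5-fold upward at 1 uM and none downward (13.8% and 13.4% of all genes), with a median log2 difference of 0.34 (0.32 to 1.05 over the alternatives). Ccne1, the cyclin of S phase entry, had log2 levels of 2.30, 2.39 and 3.46, a log2 difference of 1.17. Gins1 (0.95) of the replicative helicase and Dbf4 (0.90), the activator of Cdc7, were higher too. Pcna, the polymerase clamp, was higher by 0.41. Of the 51 genes 42 (82.4%) read above untreated, beside 46.9% of all genes, and 9 below. The lowest was Ccne2, also a cyclin E gene, at -0.53. The difference between this list and the mitosis genes was not tested, since each rests on the same 2 arrays.

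Among the regulators of these promoters, 6 of 22 genes of the MuvB, MYB and E2F list passed 1.5-fold upward at 1 uM and 1 downward. For this list and the next ones, all of them short, the shares of all genes are again 13.8% higher and 13.4% lower. E2f2 had log2 levels of 0.10, 0.01 and 1.73, a log2 difference of 1.64, and Rbl1 (p107, a DREAM subunit) had -0.18, -0.13 and 1.17, a log2 difference of 1.35. Tfdp1 (0.84) and E2f3 (0.75) were higher as well, and the MuvB subunit Lin52 was lower (-0.63). Mybl2 (B-MYB) was nearly level at 0.13. Of 8 G1 cyclins and kinases, Cdk6 (0.96) and Ccnd1 (0.65) were at least 1.5-fold higher and none lower. Of 25 inhibitors of the cell cycle and p53 targets, 1 was higher and 7 lower, with a median log2 difference of -0.23 that turned to 0.48 with spike-in scaling. The largest difference was that of the antiproliferative gene Btg2 (-1.98), followed by those of the CDK inhibitor Cdkn1b (-0.84), Ccng2 (-0.80) and Gadd45b (-0.79). The p53 target Cdkn1a (p21) had log2 levels of 5.25, 5.47 and 5.12, and Cdkn2a was not well above background on any array. At 0.01 uM no gene of these 4 lists passed 1.5-fold.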

How the data were processed

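The authors deposited spot intensity of 1-colour Cy3 arrays, read with Agilent Feature Extraction 10.5.1.1 per the file headers, where probe coordinates are of build mm9. The deposited value table holds log2 values equal to log2 processed signal minus 1 constant per array (9.45, 9.01 and 9.56 for untreated, 0.01 uM and 1 uM), within 0.01 for at least 99.8% of 41167 probes. Here control and outlier-flagged spots were left out, spots of a probe averaged, and each array's 75th percentile subtracted. Genes were represented by their brightest probe and compared where well above background on at least 1 of 2 arrays. Where 1 was dim, the fold is a bound, set by the dim value or, if larger, by the weakest detected signal of that array. Probes were named through RefSeq accession (25094), symbol (6332) or synonym (1640), and 8101 kept the file's name. No test was run, since each group has 1 array, and that number limits the precision. Genes were named by role and by size of difference, up to 4 per other list and direction, with some fixed names, and 1 gene that met this rule is not reported here; Mybl2 and Gtse1 were added after their values were seen. The genes and lists were chosen with earlier results of these data known. Alternatives covered scaling, normexp (limma 3.58.1, R 4.3.3, offset 50), loess (span 0.4), dim probes, probe choice, outlier spots and the deposited table. Counting was tested on simulated data (Python 3.11.15, numpy 2.4.6, pandas 2.3.3, statsmodels 0.14.6).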

Additional observations from a re-analysis of the deposited data

How the results depend on the processing

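The median differences of the mitosis genes and their counts past 1.5-fold and 2-fold were recomputed under 12 alternatives, and the difference of each gene with them. Of 1426 values of single genes, 1250 moved by less than their error and 175 moved further (117 of them under spike-in scaling). The remaining 1 was a difference past 1.5-fold that changed sign. Sign changes of smaller differences were not counted apart, but they were common. At 1 uM, 15 of the 40 genes were above 0 in the main setting. That number was 22 when scaled on detected probes, 23 with quantile normalization and 39 with spike-in scaling. Spike-in scaling shifted all genes by 1 constant per comparison. It gave medians of 0.65 at 1 uM, 0.33 at 0.01 uM and 0.32 between the doses, beside 0.67, 0.37 and 0.33 for all genes. At 1 uM it put 25 genes at least 1.5-fold higher and 0 lower, where 7017 of all 12450 genes were higher and 334 lower. It put 2 at least 2-fold higher (Espl1 and Plk1) and 0 lower, and the 2-fold share of all genes was not counted on that scale. Between the doses it put 8 at least 1.5-fold higher and 0 lower, where 3494 of all 12059 genes were higher and 806 lower. Aurkb at 1 uM turned from -0.70 to 0.0095 on that scale. Cdc25c lay near the 2-fold mark, and 0 genes were 2-fold lower at 1 uM with the 75th percentile of detected probes, normexp, the mean of all probes or the median of detected probes. With normexp 1 gene, Cdc25c, was at least 1.5-fold lower at 1 uM. Between the doses the 75th percentile of detected probes gave 1 gene at least 1.5-fold higher (Espl1, 0.62), and loess scaling 1 (Incenp, 0.59). The medians are so near 0 that their sign changed with scaling, as at 1 uM with quantile normalization (0.06). No paired analysis was possible because each group has 1 array, so no result has a replicate check. Signal over background limits Ttk, which was dim in both dose groups.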
